A study of Mus musculus with 9 samples.

Results

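The genes of cholesterol synthesis and transport were described in brain RNA of male C57BL/6 mice after experimental intracerebral hemorrhage (ICH, bleeding into brain tissue). The 26 genes were chosen by name. They were enzymes of sterol synthesis, regulators and targets of the transcription factor SREBP2, and genes of cholesterol efflux and turnover. All 26 were found among the 38621 genes of the table. They were chosen with earlier results of these data known, so their counts beside shares of all genes are descriptions and not tests. The sham group was injected with saline and is labelled untreated, the ICH group was injected with autologous whole blood, and the feb group received febuxostat, a xanthine oxidase inhibitor used against gout, at 50 mg/kg by gavage once daily for 5 days before the same blood injection. Each group had 3 samples, from 3 mice per group by the study's description. No group received febuxostat without blood, so the feb group differs from ICH in the drug and from sham in both the drug and the blood. The brain region, the hemisphere and the time after injection were not given for the RNA samples in the sources used here.

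Cholesterol of the adult brain is made within the brain, because the blood-brain barrier keeps out plasma lipoproteins. Myelin holds most of it, and astrocytes make cholesterol and load it with apolipoprotein E onto particles that neurons take up. In synthesis, acetyl-CoA is turned into mevalonate and isoprenoid units, these are joined into squalene, and squalene is closed into lanosterol, which is trimmed to cholesterol. When sterol in the endoplasmic reticulum is low, SREBP2 is released from its anchor, enters the nucleus and switches on most genes of synthesis, and when sterol is high, INSIG proteins hold it back. Surplus sterol is passed out by the transporters ABCA1 and ABCG1 or, in neurons, hydroxylated by CYP46A1.

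Expression was given as RPKM (reads on a gene per base of exon, scaled to the sample's depth), from 23065757 to 29538009 reads per sample. At these depths 3 reads on an exon length of 1 kb were worth an RPKM of 0.102 to 0.130. Groups were compared by limma on log2(RPKM + 0.1) over the 29025 genes that passed a filter on low values, which all 26 genes passed, and log2 fold changes are on that scale. A gene is said to rise or fall at an unadjusted p under 0.05. None of the 26 genes changed more than 2-fold or reached an adjusted p (Benjamini-Hochberg over the 29025 genes) under 0.05 in any comparison, and the lowest adjusted p of limma among them was 0.395 for ICH against sham, 0.234 for feb against ICH and 0.565 for feb against sham.

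Hmgcs1, the synthase that makes HMG-CoA ahead of mevalonate, had the largest fall among the genes of synthesis in feb against ICH. Its upstream sequence is shown because it was the only one of the 21 genes with a RefSeq promoter window that held the sterol element searched for. The 250 bases before the RefSeq start lie at chr13:119690101-119690350 on the plus strand of GRCm38.p6. They end before the start of the gene model used for counting, at position 119690462. Capitals mark TCACCCCAC, a match to TCACNCCAC that begins 137 bases before the start, and 3 copies of ATTGG, which is CCAAT on the other strand and is the motif of the factor NF-Y.
Hmgcs1: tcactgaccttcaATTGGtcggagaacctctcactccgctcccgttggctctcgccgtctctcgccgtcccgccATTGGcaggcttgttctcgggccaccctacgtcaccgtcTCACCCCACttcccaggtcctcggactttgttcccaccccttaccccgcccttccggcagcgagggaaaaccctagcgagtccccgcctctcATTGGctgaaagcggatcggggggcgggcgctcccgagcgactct

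Both motifs were searched on both strands of windows of 300 bases, from 250 before to 50 after each start. TCACNCCAC, a form of the sterol regulatory element bound by SREBP proteins, was found in 1 of the 21 genes (4.76%) and in 1.44% of the 27025 genes of the whole table, which has 32851 windows. CCAAT was found in 17 of the 21 genes (81.0%) and in 41.1% of all genes, or 37.4% of all windows. The 4 genes with a window but no CCAAT were Acat2, Abca1, Apoe and Ch25h. Fdps, Fdft1, Sqle, Stard4 and Abcg1 had no window.

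The genes that fell in the feb group against ICH and against sham were mostly enzymes of synthesis and genes of sterol sensing, 9 of them in both comparisons. In feb against ICH, 10 of the 26 genes fell, against 6.16% of all genes tested, and 1 rose, against 4.90%. In feb against sham, 12 fell, against 2.90% of all genes, and none rose, against 5.63%. In ICH against sham, 2 fell, against 4.42%, and none rose, against 7.88%. The shares of all genes depended on scaling. With samples scaled to equal medians, 7.07% of all genes (2053 of 29025) fell and 1161 rose in ICH against sham, where 3 of the 26 fell, and 5.17% fell and 3.45% rose in feb against sham, where 13 of the 26 fell. In feb against ICH, 5.53% fell and 4.60% rose, and again 10 of the 26 fell and 1 rose. The median log2 fold change of the 26 genes was -0.28 for feb against ICH, where that of all genes tested was -0.01, and -0.32 for feb against sham, where that of all genes was 0.05. For ICH against sham it was 0.06, beside 0.08 for all genes. The share of all genes that met the study's criterion of p under 0.05 and a fold change over 2 was 2.53% for ICH against sham, 2.43% for feb against ICH and 2.20% for feb against sham, and none of the 26 did. Both feb comparisons use the same feb samples and are not independent of each other. The 9 genes that fell in both were Hmgcs1, Idi1, Sqle, Cyp51, Msmo1, Nsdhl, Sc5d, Srebf2 and Stard4. The share of all genes that fell in both was not counted.

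**Figure D1:**
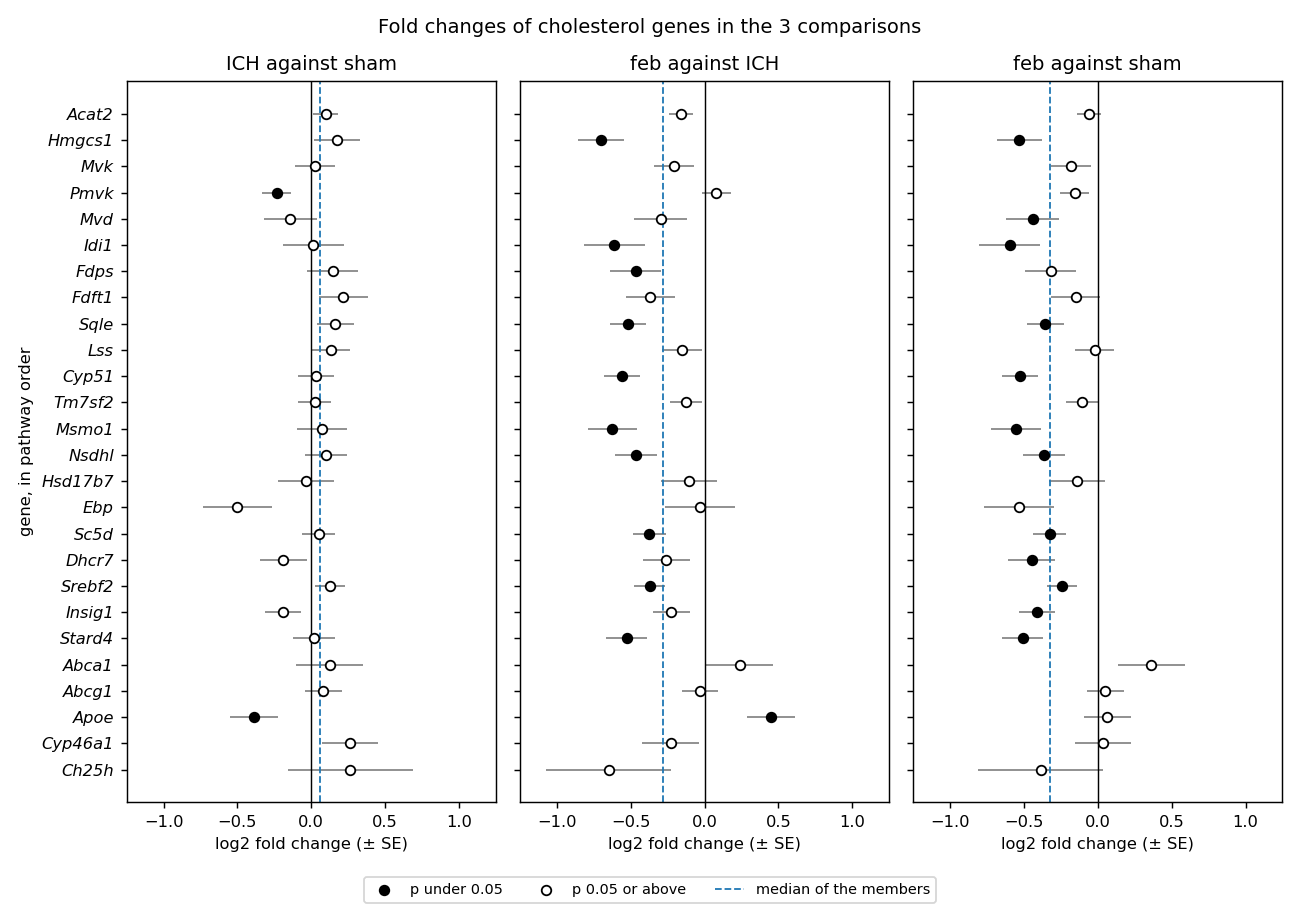
Log2 fold changes of the 26 genes, in pathway order from top to bottom, for ICH against sham (left), feb against ICH (middle) and feb against sham (right). Points are limma estimates with their SE, filled where the unadjusted p was under 0.05, and the dashed line is the median of the 26 genes, at 0.06, -0.28 and -0.32.

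By a count of genes whose samples do not overlap between groups, 13 of the 26 were lower in every feb sample than in every ICH sample, against 10.1% of all genes, and 1 was higher, against 7.04%. Against sham, 9 were lower in every feb sample, against 4.90% of all genes, and none was higher, against 7.78%. For ICH against sham, 2 were lower, against 6.22%, and 1 was higher, against 13.2%. In 8 genes, namely Hmgcs1, Fdps, Sqle, Cyp51, Msmo1, Nsdhl, Insig1 and Stard4, all 3 feb samples lay below all 6 others. The share of all genes with that pattern was not counted, so this number has no background beside it.

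The mevalonate arm, from acetyl-CoA to farnesyl diphosphate, was represented by 7 genes, of which Hmgcs1, Idi1 and Fdps fell in feb against ICH and Hmgcs1, Mvd and Idi1 fell in feb against sham. Of all genes tested, 6.16% fell in the first comparison and 2.90% in the second. Hmgcs1 was the most abundant enzyme of the list. Its RPKM was 76.6, 61.2 and 66.4 in the sham samples, 65.3, 91.7 and 74.4 in ICH, and 42.8, 55.8 and 43.2 in feb. Every feb sample was thus below every other sample, and the ranges of ICH and sham overlapped. The mean fell by 38.8% from 77.2 ± 13.4 in ICH to 47.3 ± 7.43 in feb (SD, n = 3), a log2 fold change of -0.70 ± 0.15 (SE, limma unadjusted p = 0.00158, adjusted p = 0.239). Against sham, with a mean of 68.1 ± 7.79, the log2 fold change was -0.53 ± 0.15 (limma unadjusted p = 0.00803, adjusted p = 0.565).

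Idi1, the isomerase that makes the activated isoprenoid unit, had an RPKM of 8.06, 5.74 and 6.83 in sham, 5.56, 7.87 and 7.44 in ICH, and 3.70, 5.83 and 4.14 in feb. The second feb sample lay above the lowest sample of each other group, so the groups overlapped. Its log2 fold change was -0.61 ± 0.21 against ICH (limma unadjusted p = 0.0167, adjusted p = 0.363) and -0.60 ± 0.21 against sham (limma unadjusted p = 0.0185, adjusted p = 0.565). Its call against ICH was lost without ICH sample 2 (-0.51), ICH sample 3 (-0.55), feb sample 1 (-0.48) or feb sample 3 (-0.56), and that against sham without sham sample 1 (-0.48), feb sample 1 (-0.46) or feb sample 3 (-0.54). Fdps, farnesyl diphosphate synthase, had an RPKM of 7.49, 5.66 and 6.57 in sham, 6.48, 9.51 and 6.13 in ICH, and 5.21, 4.998 and 5.43 in feb. The feb samples were close to each other and below all others, and the second ICH sample was the highest of the 9. Its log2 fold change against ICH was -0.47 ± 0.17 (limma unadjusted p = 0.0251, adjusted p = 0.394), and without that ICH sample it was -0.27 and the call was lost, as it was without feb sample 1 (-0.47) or feb sample 2 (-0.44). The Fdps exons share 1124 bases, 26.7% of their length, with Gm43738 on the same strand, whose RPKM was 20.0 ± 1.34 in sham, 21.3 ± 1.33 in ICH and 16.7 ± 1.01 in feb (SD, n = 3), and reads in the shared bases cannot be assigned to one of them.

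Mvd, the decarboxylase that yields isopentenyl diphosphate, had an RPKM of 14.4, 10.3 and 11.2 in sham, 9.07, 11.8 and 11.5 in ICH, and 7.60, 10.9 and 7.93 in feb. The second feb sample lay within the range of the other groups. Its log2 fold change was -0.44 ± 0.18 against sham (limma unadjusted p = 0.0376, adjusted p = 0.581), a call lost without sham sample 1 (-0.30), sham sample 3 (-0.48), feb sample 1 (-0.34) or feb sample 3 (-0.37). Pmvk, the kinase before it, was the enzyme that fell in ICH against sham. Its RPKM was 24.9, 21.6 and 23.9 in sham, 19.1, 19.4 and 21.3 in ICH, and 21.0, 23.5 and 18.9 in feb. All ICH samples lay below all sham samples, by a small margin, and feb overlapped both groups. The log2 fold change was -0.23 ± 0.10 (limma unadjusted p = 0.0430, adjusted p = 0.398), and it lost its call without any one of sham samples 1 (-0.19) and 3 (-0.22), ICH samples 1 (-0.21) and 2 (-0.21), and feb sample 1 (-0.23). Mvk, the first mevalonate kinase, had mean RPKM of 5.42 ± 0.597 in sham, 5.502 ± 0.540 in ICH and 4.78 ± 0.684 in feb (SD, n = 3) and passed no test. Acat2, a thiolase that makes acetoacetyl-CoA, had 5.29 ± 0.0846, 5.68 ± 0.357 and 5.07 ± 0.152 in the same order (SD, n = 3), with all feb samples below all ICH samples, and passed no test either.

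**Figure D2:**
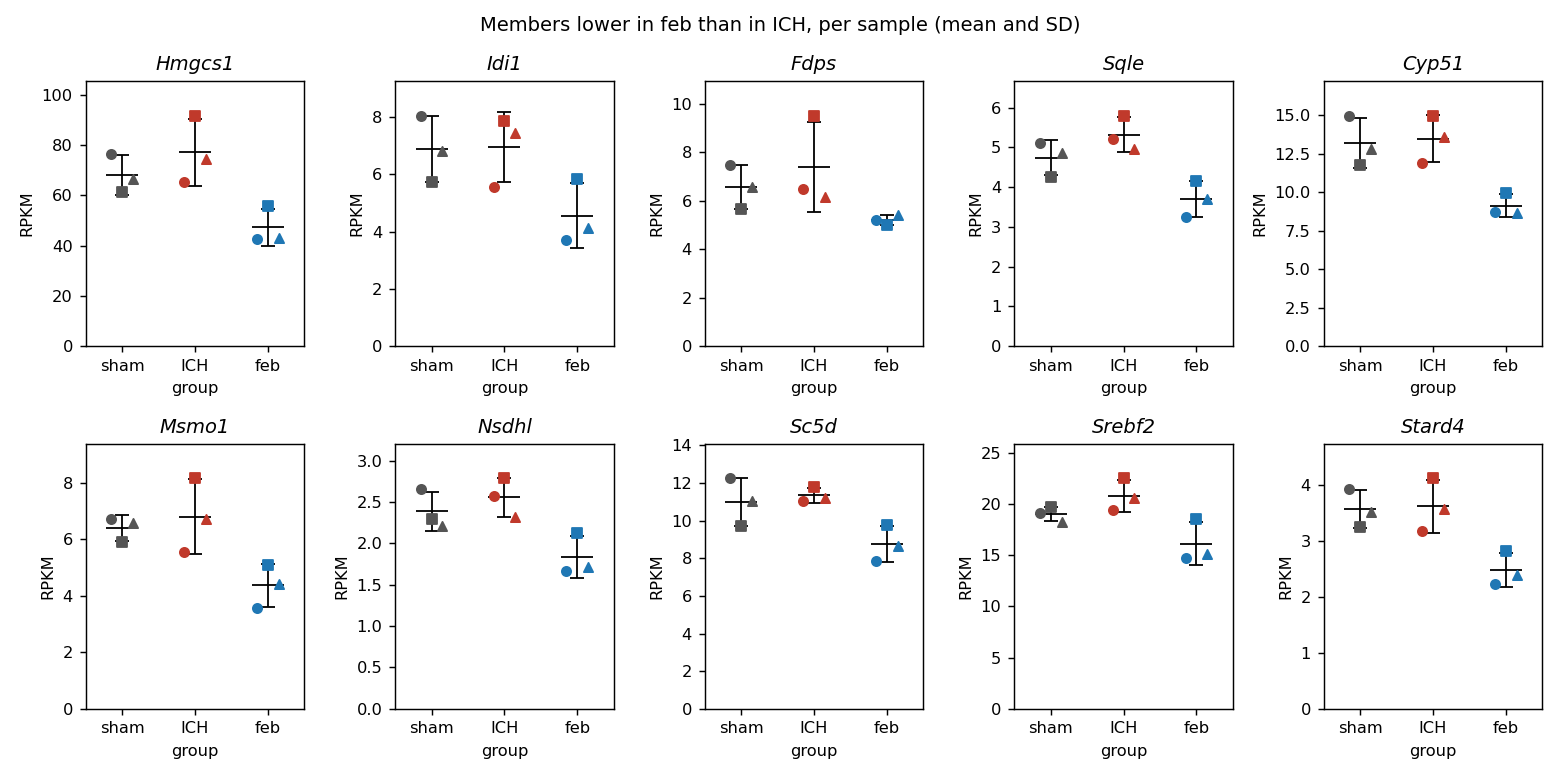
RPKM (vertical axes, from 0) of the 10 genes that fell in feb against ICH, in the sham, ICH and feb groups. Each point is 1 sample, with a circle, square and triangle for replicates 1, 2 and 3, and the line and bar are the mean and SD of 3 samples. In Hmgcs1 the feb samples sit between 42.8 and 55.8 and the ICH samples between 65.3 and 91.7.

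In the squalene and sterol arm, 5 of 11 genes fell in feb against ICH, namely Sqle, Cyp51, Msmo1, Nsdhl and Sc5d, and these with Dhcr7 fell in feb against sham. The shares of all genes that fell were 6.16% and 2.90%. Sqle, squalene epoxidase, a rate-limiting step of this arm, had an RPKM of 5.12, 4.25 and 4.87 in sham, 5.21, 5.80 and 4.96 in ICH, and 3.24, 4.16 and 3.69 in feb. The highest feb sample lay just under the lowest sham sample and well under the ICH samples. The log2 fold change was -0.52 ± 0.12 against ICH (limma unadjusted p = 0.00268, adjusted p = 0.261) and -0.35 ± 0.12 against sham (limma unadjusted p = 0.0199, adjusted p = 0.565). The call against sham was lost without sham sample 1 (-0.30), sham sample 3 (-0.33) or feb sample 1 (-0.27).

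Cyp51 and Msmo1, which remove methyl groups from lanosterol, fell in feb against both other groups. Cyp51 had an RPKM of 14.96, 11.8 and 12.8 in sham, 11.9, 14.98 and 13.6 in ICH, and 8.69, 9.97 and 8.67 in feb. The feb samples stood clear of both other groups, which covered the same range. The mean fell by 32.5% from ICH to feb, with a log2 fold change of -0.56 ± 0.12 and the lowest adjusted p of the 26 genes (limma unadjusted p = 0.00147, adjusted p = 0.234), and against sham the log2 fold change was -0.52 ± 0.12 (limma unadjusted p = 0.00214, adjusted p = 0.565). Msmo1 had an RPKM of 6.72, 5.89 and 6.58 in sham, 5.53, 8.16 and 6.71 in ICH, and 3.58, 5.09 and 4.42 in feb. Here too no feb sample reached another group. Msmo1 had a log2 fold change of -0.62 ± 0.17 against ICH (limma unadjusted p = 0.00515, adjusted p = 0.292) and -0.55 ± 0.17 against sham (limma unadjusted p = 0.00984, adjusted p = 0.565).

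Nsdhl, the dehydrogenase that acts with Msmo1, had an RPKM of 2.66, 2.29 and 2.21 in sham, 2.58, 2.79 and 2.31 in ICH, and 1.67, 2.12 and 1.72 in feb. The feb samples were the lowest 3 of the 9. Its log2 fold change was -0.46 ± 0.14 against ICH (limma unadjusted p = 0.0106, adjusted p = 0.326) and -0.36 ± 0.14 against sham (limma unadjusted p = 0.0317, adjusted p = 0.580), the latter lost without sham sample 1 (-0.29), feb sample 1 (-0.30) or feb sample 3 (-0.32). Sc5d, the desaturase that makes the double bond of 7-dehydrocholesterol, had an RPKM of 12.2, 9.70 and 11.1 in sham, 11.1, 11.8 and 11.2 in ICH, and 7.88, 9.77 and 8.63 in feb. All feb samples lay below ICH, and the highest of them just passed the lowest sham sample. Its log2 fold change was -0.37 ± 0.11 against ICH (limma unadjusted p = 0.00872, adjusted p = 0.314) and -0.32 ± 0.11 against sham (limma unadjusted p = 0.0175, adjusted p = 0.565), the latter lost without sham sample 1 (-0.24) or feb sample 1 (-0.25).

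Dhcr7, which reduces 7-dehydrocholesterol to cholesterol, was highest in sham. It had an RPKM of 1.96, 1.85 and 1.86 in sham, 1.57, 1.73 and 1.64 in ICH, and 1.11, 1.67 and 1.35 in feb. Sham stood above both groups that received blood, and the second feb sample lay among the ICH samples. The log2 fold change in feb against sham was -0.45 ± 0.16 (limma unadjusted p = 0.0205, adjusted p = 0.565), lost without sham sample 1 (-0.42) or feb sample 1 (-0.31).

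The other 5 genes of this arm passed no test. Fdft1, squalene synthase, had mean RPKM of 26.2 ± 3.01 in sham, 30.9 ± 6.83 in ICH and 23.7 ± 3.50 in feb (SD, n = 3), and ICH sample 2, at 38.7, was the highest of the 9. It shares 767 exon bases (26.8%) with Ctsb on the opposite strand, and whether the counting used strand was not stated. Ebp, the sterol isomerase, had an RPKM of 9.98, 5.78 and 8.39 in sham, 5.13, 6.16 and 5.32 in ICH, and 5.04, 7.27 and 4.30 in feb, with a wide spread in sham. Lss, which closes squalene epoxide into lanosterol, had means of 2.20 ± 0.0249 in sham, 2.42 ± 0.157 in ICH and 2.18 ± 0.331 in feb (SD, n = 3), and it was the gene whose ICH samples all lay above sham. Tm7sf2, a sterol reductase, and Hsd17b7, a sterol ketoreductase, were at 1.81 to 2.15 and 1.05 to 1.64 over the 9 samples. Tm7sf2 shares 532 exon bases (15.3%) with Vps51 on the same strand, and Cyp51 and Lss share 3.76% and 3.53% of their exon bases with genes on the opposite strand.

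Of all 18 enzymes, 8 fell in feb against ICH and 9 in feb against sham, with medians of -0.33 and -0.34 on the log2 scale, and none rose. Of all genes tested, 6.16% fell and 4.90% rose in feb against ICH, with a median of -0.01. In feb against sham 2.90% fell and 5.63% rose, with a median of 0.05. The estimate was below 0 for all 18 enzymes in feb against sham and for 17 in feb against ICH, the exception being Pmvk. The lowest of the 9 samples was a feb sample for all 18 enzymes, where it was a feb sample for 29.9% of all genes tested. It was feb sample 1 for 12 enzymes, feb sample 3 for 4 and feb sample 2 for 2. The highest of the 9 was ICH sample 2 for 10 enzymes, sham sample 1 for 7 and sham sample 2 for 1. Of all genes tested, 38.7% were highest in an ICH sample, 23.6% in a sham sample and 37.7% in a feb sample.

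**Figure D3:**
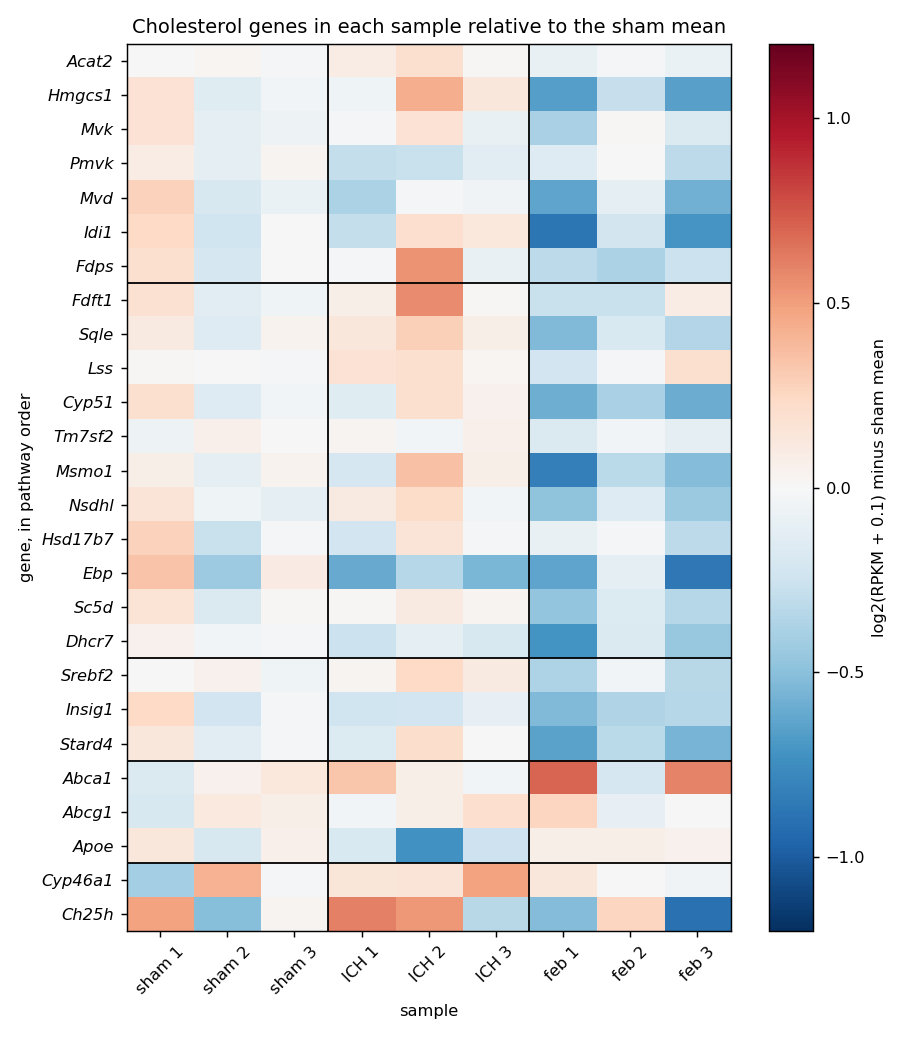
Difference of log2(RPKM + 0.1) from the sham mean for the 26 genes (rows, in pathway order, with lines between functional groups) in the 9 samples (columns), blue below and red above the sham mean. The feb columns are blue over most enzymes of synthesis, more so in feb samples 1 and 3 than in feb sample 2, with Lss and Fdft1 above the sham mean in feb sample 3 and Mvk and Pmvk at or just above it in feb sample 2, and the ICH 2 column is red over most of them.

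The enzymes also differed from sample to sample within groups, and most were highest in the same sample of a group. Their geometric mean, as a ratio to the sham mean, was 1.11, 0.911 and 0.992 in the sham samples, 0.931, 1.11 and 0.978 in ICH, and 0.732, 0.896 and 0.780 in feb. Within its group, sham sample 1 was the highest for 16 of the 18 enzymes, ICH sample 2 for 16 and feb sample 2 for 15. The matching shares of all genes were not counted, and whether this was particular to the enzymes was not tested. The group values were 1.003 ± 0.0986 in sham, 1.008 ± 0.0957 in ICH and 0.803 ± 0.0846 in feb (SD, n = 3). All feb samples were below all others, though feb sample 2 was close to sham sample 2.

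Markers of brain cell types, measured in the same libraries, differed between samples too, and in bulk RNA fewer cells of a type and less RNA per cell cannot be told apart. The summed RPKM of 9 oligodendrocyte markers, the genes of the cells that make myelin, was 696 to 1025 in sham, 578 to 973 in ICH and 533 to 869 in feb. None of the 9 fell in feb against ICH and 2 fell in feb against sham, where 6.16% and 2.90% of all genes fell. In feb against sham 8 of the 9 estimates were below 0, with a median of -0.55, beside -0.34 for the enzymes. In feb against ICH 7 were below 0, with a median of -0.25, beside -0.33 for the enzymes. In ICH against sham all 9 were below 0, with a median of -0.35, beside 0.04 for the enzymes. The 8 astrocyte markers summed to 535 to 670 in sham, 580 to 1051 in ICH and 491 to 645 in feb, and Gfap alone, at 574 of 1051, set the high sum of ICH sample 2. Without Gfap, the other 7 markers summed to 476 to 528 in sham, 477 to 516 in ICH, with ICH sample 2 the lowest of that group, and 437 to 485 in feb. Of the 8 markers, 1 rose in ICH against sham, 1 fell in feb against ICH and 2 fell in feb against sham. The 6 neuron markers summed to 401 to 460 in sham, 462 to 502 in ICH and 418 to 444 in feb, and 3 of them rose in ICH against sham, 1 fell in feb against ICH and 1 rose in feb against sham. Of all genes tested, 7.88% rose in ICH against sham and 5.63% in feb against sham.

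The 6 microglia markers summed to 51.8 to 67.6 in sham, 61.8 to 114 in ICH and 47.5 to 73.3 in feb, and 4 of them fell in feb against ICH. Of all genes tested, 6.16% fell in feb against ICH and 2.90% in feb against sham. The 5 markers of the choroid plexus, the tissue that makes cerebrospinal fluid, summed to 362 to 1027 in sham, 454 to 963 in ICH and 29.8 to 87.1 in feb, and all 5 fell in both feb comparisons. The 5 endothelial markers were at 30.7 to 36.4, 29.7 to 37.3 and 25.5 to 32.6, with 2 of 5 lower in each feb comparison. Markers of meningeal fibroblasts were at 4.67 to 14.1, 6.06 to 11.5 and 3.52 to 7.53, with 1 of 5 lower in feb against sham, and those of infiltrating or border macrophages were at 6.92 to 8.29, 4.53 to 13.7 and 5.004 to 6.73, with 1 of the 4 tested higher in ICH against sham and 1 of the 6 at 0 in a sample. Of all genes tested, 7.88% rose in ICH against sham. No list except that of the choroid plexus separated feb from both other groups in its sum. A sum follows its most abundant genes, and single markers of other lists did separate feb, such as Aqp4 and Aldh1l1 of astrocytes. The part of any of these cell types in the lower sterol genes was not tested.

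**Figure D4:**
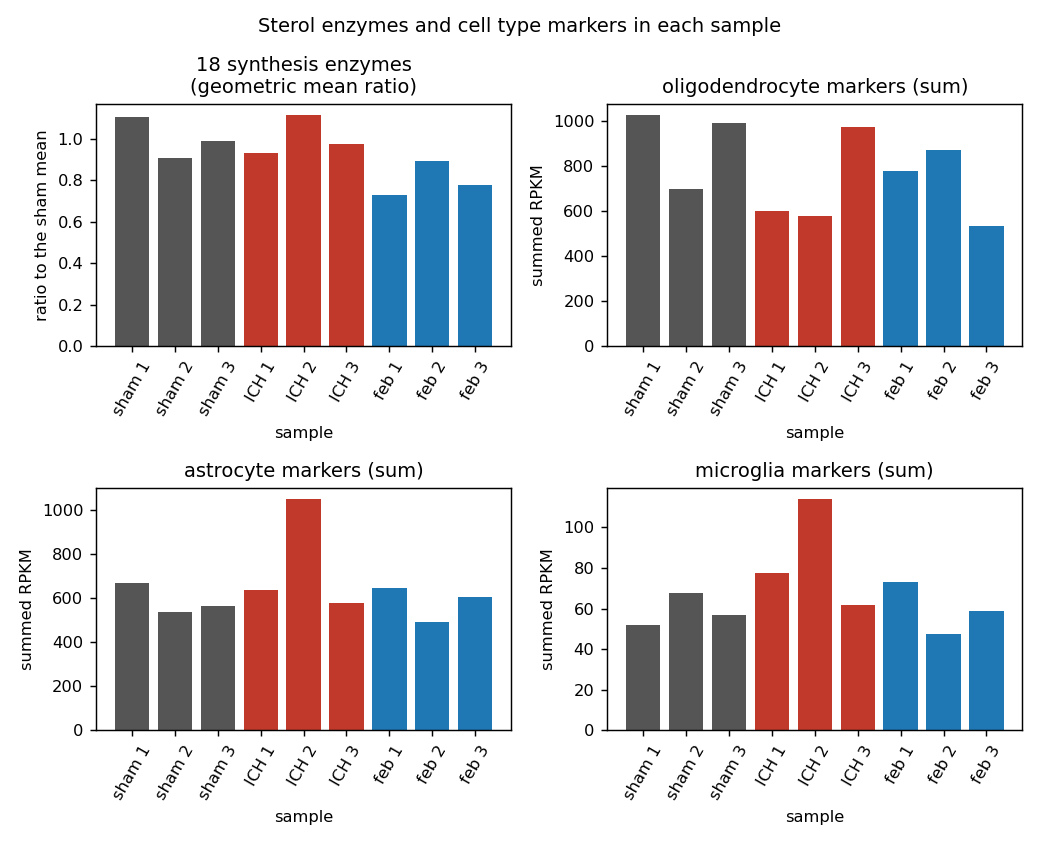
Geometric mean of the 18 enzymes as a ratio to the sham mean (top left) and summed RPKM of the oligodendrocyte, astrocyte and microglia markers, with 1 bar per sample (grey sham, red ICH, blue feb) and all axes from 0. The enzyme bars are lowest in the feb samples, at 0.732 to 0.896. The marker sums of feb overlap those of sham and ICH in the 3 lists shown. The choroid plexus sums, not shown, were 29.8 to 87.1 in feb, 362 to 1027 in sham and 454 to 963 in ICH.

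The 3 genes of sterol sensing and carriage fell in feb against sham, and 2 of them fell in feb against ICH. The shares of all genes that fell were 2.90% and 6.16%. Srebf2, which encodes SREBP2 and is itself one of its targets, had an RPKM of 19.1, 19.7 and 18.3 in sham, 19.4, 22.5 and 20.5 in ICH, and 14.7, 18.5 and 15.1 in feb. Feb sample 2 reached the sham values and the other 2 stood below all samples. Srebf2 had a log2 fold change of -0.37 ± 0.10 against ICH (limma unadjusted p = 0.00596, adjusted p = 0.298) and -0.24 ± 0.10 against sham (limma unadjusted p = 0.0422, adjusted p = 0.583). The call against sham was lost without any one of the sham samples (-0.27 to -0.22), without ICH sample 3 (-0.24), and without feb sample 1 (-0.18) or feb sample 3 (-0.20).

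Insig1, the sterol-regulated anchor of the SREBP complex, had an RPKM of 14.5, 10.4 and 12.1 in sham, 10.4, 10.4 and 11.4 in ICH, and 8.43, 9.48 and 9.63 in feb. All feb samples were the lowest, and sham was the highest group on average. The log2 fold change against sham was -0.41 ± 0.12 (limma unadjusted p = 0.00889, adjusted p = 0.565), and feb against ICH did not pass (limma unadjusted p = 0.103). Stard4, a carrier of sterol between membranes and a target of SREBP2, had an RPKM of 3.92, 3.24 and 3.52 in sham, 3.17, 4.11 and 3.57 in ICH, and 2.23, 2.81 and 2.38 in feb. Its feb samples were clear of both other groups. It had a log2 fold change of -0.53 ± 0.14 against ICH (limma unadjusted p = 0.00485, adjusted p = 0.291) and -0.51 ± 0.14 against sham (limma unadjusted p = 0.00591, adjusted p = 0.565).

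None of the 5 genes of efflux, lipoproteins and oxysterol synthesis fell in a feb comparison. This is near the shares of all genes that fell, 6.16% in feb against ICH and 2.90% in feb against sham. Apoe, the main apolipoprotein of the brain and by far the most abundant of the 26 genes, had an RPKM of 1071, 853 and 1014 in sham, 861, 589 and 819 in ICH, and 1025, 1026 and 1010 in feb. The feb samples lay close together and within the sham range, and ICH sample 2 was the lowest. Apoe fell in ICH against sham by 0.39 ± 0.16 on the log2 scale (SE, limma unadjusted p = 0.0417, adjusted p = 0.395) and was the 1 gene that rose in feb against ICH, by 0.45 ± 0.16 (SE, limma unadjusted p = 0.0217, adjusted p = 0.380). The fall was lost without ICH sample 2 (-0.22), sham sample 1 (-0.32), sham sample 3 (-0.36), feb sample 1 (-0.39) or feb sample 3 (-0.39), and the rise without ICH sample 2 (0.28) or feb sample 1 (0.45). The fall was lost as well under quantile normalization, where its log2 fold change was -0.19 (limma unadjusted p = 0.181), with no filter on low values and with a fit of those groups alone. ICH sample 2 was thus the highest of the 9 in most enzymes and the lowest in Apoe.

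Abca1, which exports cholesterol to apolipoproteins, had an RPKM of 6.30, 7.39 and 7.80 in sham, 9.04, 7.51 and 6.95 in ICH, and 11.6, 6.18 and 10.8 in feb. Feb samples 1 and 3, the lowest in enzymes of synthesis, were the highest of the 9 and feb sample 2 the lowest, so that the spread within feb exceeded the differences between groups and no test was passed. Abcg1, which exports cholesterol to lipoprotein particles, was at 9.57 to 13.1 over the 9 samples and passed no test. Cyp46a1, the neuronal enzyme that makes 24-hydroxycholesterol for export, had an RPKM of 23.9, 42.4 and 31.5 in sham, 35.2, 35.4 and 44.4 in ICH, and 34.9, 31.9 and 30.8 in feb. Every feb sample was below every ICH sample, and sham spanned nearly the whole range. Ch25h, an enzyme that hydroxylates cholesterol in activated macrophages and microglia, had 2 to 13 reads per sample and an RPKM of 0.0642 to 0.363, so differences between groups were not detectable at this depth.

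**Figure D5:**
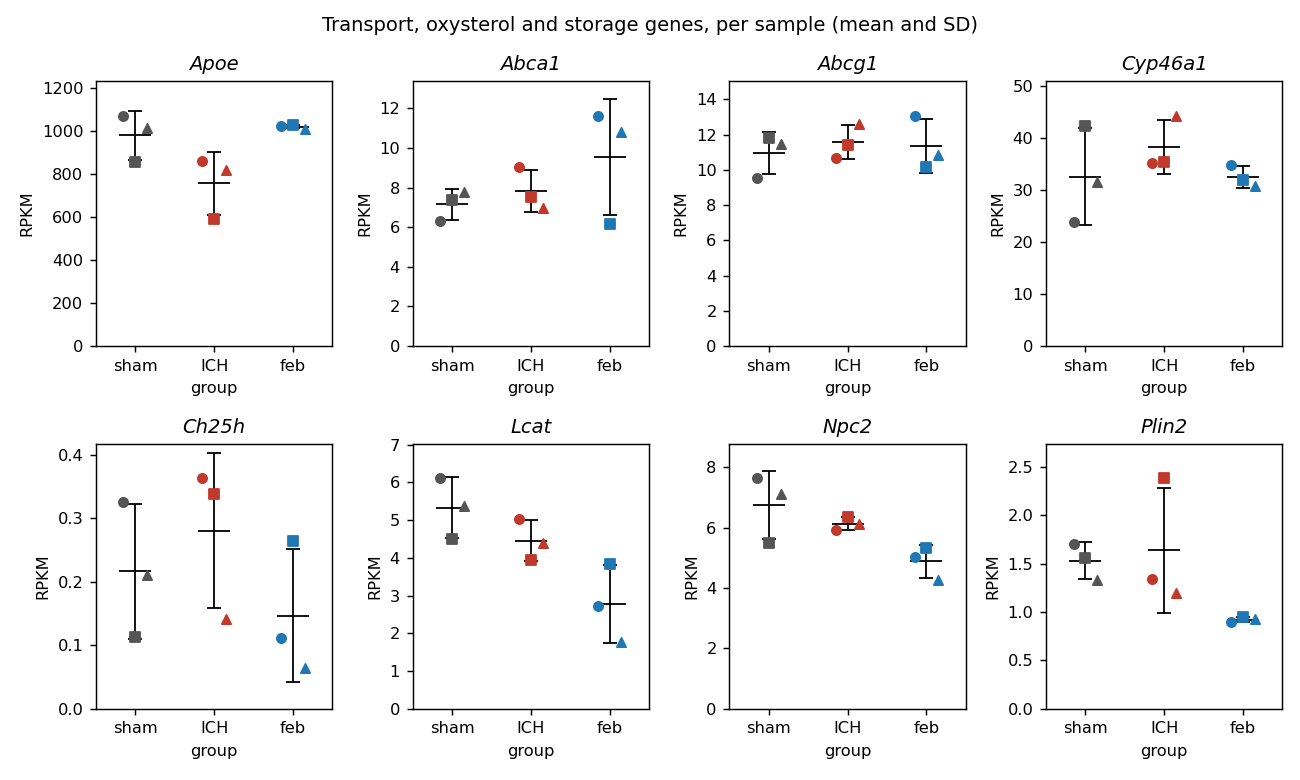
RPKM (vertical axes, from 0) of Apoe, Abca1, Abcg1, Cyp46a1 and Ch25h and of 3 further genes of sterol handling, Lcat, Npc2 and Plin2, in the sham, ICH and feb groups. Each point is 1 sample (circle, square and triangle for replicates 1, 2 and 3), and the line and bar are the mean and SD. The feb samples of Apoe lie between 1010 and 1026, and those of Lcat, Npc2 and Plin2 below all others.

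Other genes of sterol and lipid metabolism were taken from lists of 57 further genes, 56 of which were tested. Of these, 8 fell (14.3%) and 1 rose in feb against ICH, where 6.16% of all genes fell and 4.90% rose. In feb against sham 10 fell (17.9%) and none rose, where 2.90% of all genes fell and 5.63% rose. In ICH against sham 2 rose and 3 fell (5.36%), where 7.88% of all genes rose and 4.42% fell. The share that fell in ICH against sham was thus near that of all genes. Of these 24 changes, 6 kept their call with each sample left out in turn, namely those of Acly in both feb comparisons, Plin2 in feb against ICH, and Lcat, Npc2 and Scd2 in feb against sham. The call of Acly in feb against ICH was lost with samples scaled to equal medians (limma unadjusted p = 0.0585). The others of these 6 were kept in all 19 alternatives. None of the 14 regulators and isoprenoid enzymes tested changed in any comparison at an unadjusted limma p under 0.05.

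In the list of 25 genes of uptake, storage, lysosomal egress and lipoproteins, 5 fell (20%) and 1 rose in feb against ICH. In feb against sham 3 fell (12%). Of all genes, 6.16% fell in feb against ICH and 2.90% in feb against sham. Lcat, which esterifies cholesterol on lipoproteins, had an RPKM of 6.11, 4.50 and 5.38 in sham, 5.02, 3.94 and 4.38 in ICH, and 2.73, 3.84 and 1.78 in feb, and the groups of feb and ICH were parted by a narrow gap. Its log2 fold change was -0.72 against ICH and -0.97 against sham, and the first was lost without ICH sample 1 (-0.63) or feb sample 3 (-0.44). Plin2, which coats lipid droplets, had mean RPKM of 1.53 ± 0.191 in sham, 1.64 ± 0.648 in ICH and 0.922 ± 0.0276 in feb (SD, n = 3) and fell in both feb comparisons, as did Npc2, a lysosomal sterol carrier, with 6.76 ± 1.12, 6.14 ± 0.221 and 4.88 ± 0.555. Vldlr, a lipoprotein receptor, and Nceh1, a cholesteryl ester hydrolase, fell in feb against ICH, with log2 fold changes of -0.24 and -0.30. Abca2, a lipid transporter of oligodendrocytes, rose by 0.29. Lrp8, a receptor of apolipoprotein E, and Gramd1c, a sterol transfer protein, rose in ICH against sham by 0.29 and 0.60 on the log2 scale. These 2 of 25 genes are near the 7.88% of all genes that rose. With 1 sample left out, the fall of Plin2 against sham was lost in 3 of the 9 fits (log2 fold changes of -0.65 to -0.59), that of Npc2 against ICH in 6 (-0.35 to -0.24), that of Vldlr in 6 (-0.25 to -0.17) and that of Nceh1 in 5 (-0.31 to -0.18). The rises of Abca2, Lrp8 and Gramd1c were lost in 7 (0.18 to 0.33), 4 (0.21 to 0.28) and 4 (0.51 to 0.59). Over all 19 alternatives, the falls of Npc2, Vldlr and Nceh1 against ICH were lost in 11, 11 and 9. The rises of Abca2 and Lrp8 were lost in 13 and 10, and that of Gramd1c in 5 of the 18 where it was tested.

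None of 5 further enzymes of oxysterol and bile acid synthesis passed in any comparison. Fatty acid genes under SREBP1, with Srebf1 itself, were a list of 12. In feb against sham 7 of them fell, namely Acly, Fasn, Scd1, Scd2, Elovl5, Elovl6 and Fads1, and in feb against ICH Acly, Fasn and Elovl5 fell. These were 58.3% and 25% of the list, against 2.90% and 6.16% of all genes. In feb against sham 10 of the 12 estimates were below 0, and those of Srebf1 and Acaca were above, at 0.09 and 0.26. In feb against ICH 9 were below 0, and Srebf1, Acaca and Fads2 were above, at 0.22, 0.16 and 0.14. None of these higher estimates had an unadjusted limma p under 0.05. Acly, which makes the cytosolic acetyl-CoA used by both fatty acid and sterol synthesis, had an RPKM of 29.5, 29.3 and 27.1 in sham, 24.9, 27.3 and 27.2 in ICH, and 23.6, 21.5 and 22.2 in feb. Its feb samples lay below all others, with log2 fold changes of -0.24 ± 0.07 against ICH (SE, limma unadjusted p = 0.0110, adjusted p = 0.328) and -0.35 ± 0.07 against sham (SE, limma unadjusted p = 0.00112, adjusted p = 0.477). Scd1, Scd2 and Fads2, desaturases of fatty acids, fell in ICH against sham, with log2 fold changes of -0.48, -0.31 and -0.34. These 3 were 25% of the 12 genes, against 4.42% of all genes. Scd2, the most abundant of them, had mean RPKM of 141 ± 13.2 in sham, 113 ± 6.60 in ICH and 106 ± 15.6 in feb (SD, n = 3). Both Scd genes thus fell against sham in each of the groups that received blood. The feb and ICH samples of Scd1 and Scd2 overlapped. In ICH against sham, the calls of Scd1, Scd2 and Fads2 were lost in 4, 4 and 5 of the 9 fits with 1 sample left out (with log2 fold changes as near 0 as -0.39, -0.27 and -0.29), and in feb against sham those of Scd1, Fasn, Elovl5, Elovl6 and Fads1 in 3, 4, 3, 5 and 5. Those of Fasn and Elovl5 in feb against ICH were each lost in 2. Over all 19 alternatives, the calls of Fasn and Elovl5 in feb against ICH were lost in 5 and 6. Those of Scd1, Scd2 and Fads2 in ICH against sham were lost in 6, 7 and 7. In feb against sham, those of Scd1, Fasn, Elovl5, Elovl6 and Fads1 were lost in 3, 7, 5, 8 and 7.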

How the data were processed

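The authors trimmed the reads with Trimmomatic 0.36, grouped them by unique molecular identifier into consensus reads, used GRCm38 as the genome, counted exonic reads by featureCounts (Subread 1.5.1) and deposited RPKM values for 9 samples. The annotation release and the use of strand were not given in the sources used here. RPKM multiplied by exon length gave whole reads for 100% of values (within 0.01), which supplied the depths. The authors tested genes with edgeR 3.12.1. Here the test was limma 3.58.1 (R 4.3.3), by lmFit with trended eBayes on log2(RPKM + 0.1). A gene was tested where 3 or more samples had an RPKM of 0.1 or more, and the 3 groups were fitted together without a block. Fold changes on this scale understate those of low genes. A count test was run only as an alternative, by limma's voom on the recovered reads. With 10 other settings and 9 leave-one-out fits, 19 alternatives were run. The fit was tested on simulated data. Tables used Python 3.11.15.

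The 26 genes and the other lists were chosen with earlier results of these data known. Named genes were all 26, further pathway genes with an unadjusted p under 0.05 in a comparison, and the promoter of any of the 26 with TCACNCCAC. Promoter windows were from RefSeq (GRCm38.p6) and matched by symbol. Of 57 further genes, 56 were tested, and 1 other listed gene is not reported here. Same-numbered samples of different groups did not deviate together (r from -0.127 to 0.0194 over 9 pairs).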

Additional observations from a re-analysis of the deposited data

How the results depend on the processing

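None of the 25 changes of the 26 genes with an unadjusted p under 0.05 turned direction in the 19 alternatives, and 13 kept their call in all of them. These were Hmgcs1, Sqle, Cyp51, Msmo1, Nsdhl, Sc5d, Srebf2 and Stard4 in feb against ICH, and Hmgcs1, Cyp51, Msmo1, Insig1 and Stard4 in feb against sham. Several alternatives could move only the p-values, because they keep each fold change as it is. They were both filter changes, the fit of 2 groups, eBayes without trend, the replicate block and leaving out a sample of the third group. The direction could not turn in those. Of the other 53 estimates, 18 changed sign in at least 1 alternative, none of them over 0.15 on the log2 scale. The 2 genes that changed in ICH against sham became 1 with no filter on low values, 1 with quantile normalization, 1 with eBayes without trend and 1 with the replicate number as a block, and 0 to 5 with 1 sample left out, the 5 without sham sample 2 and 0 without sham sample 1, sham sample 3, ICH sample 2 or feb sample 1. The 12 genes of feb against sham became 5 to 15 with 1 sample left out, with 5 without sham sample 1 or feb sample 1 and 15 without feb sample 2. The 11 of feb against ICH became 8 to 13. Scaling samples to equal medians moved the median of all genes from 0.08 to -0.03 in ICH against sham and from 0.05 to -0.06 in feb against sham, and the counts of the 26 genes were then 3 and 13. The replicate numbers did not pair the samples, and 0 of the 9 samples correlated best with its own number. With the number as a block the counts for feb against ICH and feb against sham were 10 and 11. Ch25h, with 2 to 13 reads, is beyond what this depth can compare.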
